A study of Homo sapiens with 4 samples.

Results

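The genes described here are UTP14C (NCBI Gene ID 9724), the gene ALG11 (440138) that surrounds it, and UTP14A (10813), its parent gene on the X chromosome. They are 3 of the 46427 genes in the count table, found by their symbols. UTP14C was picked because its row was lower with the YTHDF1 vector than with the control vector in this same table, and ALG11 and UTP14A were taken as its host and its parent, so the members' differences between the vectors are given below as descriptions without a test. The source of RNA was the gastric cancer cell line SNU638 (human, established), given either a control vector (Control, n = 2) or a vector expressing YTHDF1 (YTHDF1, n = 2). YTHDF1 is a cytoplasmic protein that binds N6-methyladenosine (m6A) in RNA. The labels call the 2 libraries of a group biological replicates. All 4 libraries, the control ones included, came from cells kept 24 h without serum and then given IFN-γ at 10 ng/ml, for 8 h by the labels and 24 h by the study's legends, so no untreated cells are compared. The vectors were delivered by transfection of plasmids according to the methods, so a library averages cells that may have taken up different amounts. In such bulk samples, fewer cells with an RNA and less of it per cell cannot be told apart.

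UTP14 is a nucleolar protein of the small subunit processome, the large particle in which the 18S ribosomal RNA is cut out of its precursor and folded. It activates the RNA helicase DHX37, which pulls the U3 small nucleolar RNA off the precursor. UTP14A carries the introns of the ancestral gene. UTP14C is a retrogene: a spliced UTP14A transcript was copied back into DNA and landed in an autosome, inside ALG11. ALG11 is a mannosyltransferase that adds mannoses to the dolichol-linked precursor of N-glycans on the cytosolic face of the endoplasmic reticulum. The products of UTP14C and ALG11 therefore have no task in common, although their transcripts overlap.

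The rows of UTP14C and ALG11 are read together because the genes overlap. On GRCh38.p14, the RefSeq table places ALG11 at chr13:52012398-52033600 and UTP14C at chr13:52024691-52033600, on the same strand and with the same last base. UTP14C starts 12293 bases downstream of the ALG11 start. UTP14A lies at chrX:129906164-129929752. In the GENCODE 29 models, an ALG11 transcript of 4 exons measures 2558 bases, another of 3 exons measures 4248 bases, and the UTP14C transcript has 2 exons and 5529 bases. The 3-exon ALG11 transcript covers 69.7% of the exonic bases of UTP14C and all GENCODE 29 models of ALG11 together cover 74.2%. In that annotation, 1429 bases of the UTP14C transcript lie outside every ALG11 exon. The RefSeq ALG11 gene shares its last base with UTP14C, so in RefSeq those bases may be ALG11 exon, which was not examined. The whole coding sequence of UTP14C, 2298 bases in 1 exon, lies inside the last exon of the 3-exon ALG11 transcript, in its 3′ untranslated region. The 4-exon ALG11 transcript covers 37.4% of it.

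**Figure D1:**
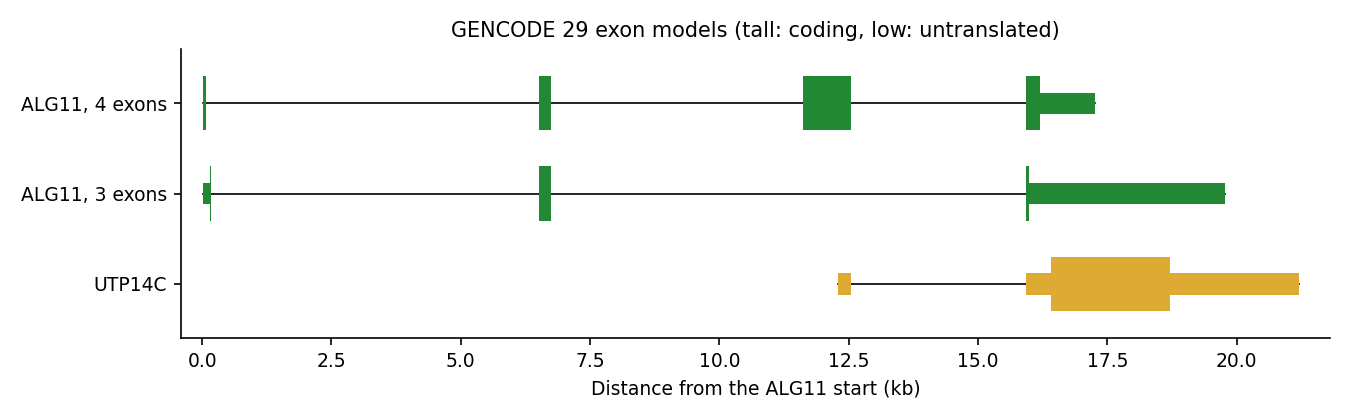
Exons of 2 ALG11 transcripts and of the UTP14C transcript, drawn to scale as boxes against the distance from the ALG11 start in kilobases (tall boxes are coding, low boxes untranslated, lines are introns). The whole coding box of UTP14C sits under the last exon of the 3-exon ALG11 transcript, and the first exon of UTP14C under the third exon of the 4-exon one.

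The start of UTP14C is itself coding sequence of its host. The RefSeq window around it (300 bases) was found unbroken in the 4-exon ALG11 transcript, within exon 3 of 4. Of that window, chr13:52024541-52024720 on the plus strand is shown, with the first 30 bases of UTP14C in capitals.

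UTP14C start: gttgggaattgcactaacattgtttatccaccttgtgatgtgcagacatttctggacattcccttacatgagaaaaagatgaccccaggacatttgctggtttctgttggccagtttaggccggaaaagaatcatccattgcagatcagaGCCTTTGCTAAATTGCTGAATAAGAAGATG

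Splicing does not separate the genes either. The UTP14C transcript and the 4-exon ALG11 transcript use the same junction, from base 52024937 to base 52028319 of chromosome 13. The 15 bases before it are in lower case and the 15 after it in capitals, and a read confined to them could come from either transcript.

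ALG11 junction: agcattttgggattgGAGTTGTGGAGTGTA

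UTP14C junction: agcattttgggattgGAGTTGTGGAGTGTA

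Against its parent, UTP14C differs more. The coding sequences of UTP14C and UTP14A (2313 bases spread over 15 exons) were identical at 94.8% of the ungapped positions, with 120 mismatches. Near their beginning, 8 mismatches fall within 120 bases, which are shown with the mismatched bases in capitals (bases 26 to 145 of the UTP14C coding sequence and 29 to 148 of that of UTP14A).

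UTP14C coding stretch: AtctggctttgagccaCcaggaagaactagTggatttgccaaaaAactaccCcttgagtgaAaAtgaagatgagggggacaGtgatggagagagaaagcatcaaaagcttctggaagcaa

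UTP14A coding stretch: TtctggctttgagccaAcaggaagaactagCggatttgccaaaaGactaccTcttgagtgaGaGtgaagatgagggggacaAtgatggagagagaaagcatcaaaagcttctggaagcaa

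The longest stretch without a mismatch measures 169 bases (from base 1771 of UTP14C and base 1774 of UTP14A) and is shown because reads that fall within it carry no mark of their gene.

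Identical stretch: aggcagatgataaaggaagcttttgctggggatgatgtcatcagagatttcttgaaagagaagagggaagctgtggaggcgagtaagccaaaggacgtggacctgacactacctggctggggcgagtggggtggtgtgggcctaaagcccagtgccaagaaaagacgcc

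Of all windows of 50 bases along the UTP14C coding sequence, 12.9% were also found in the UTP14A transcript. The share was 6.61% for windows of 75 bases and 4.0% for windows of 100 bases. The read length, the counting tool, its strand setting and its treatment of reads that match 2 genes are not given in the sources used here. Both genes of the locus lie on the plus strand, so a stranded library does not separate them.

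The 4 libraries held between 57398137 and 60864942 counted reads. The libraries stood apart by replicate number more than by vector: over the tested genes, log2 CPM correlated at r = 0.985 and 0.983 between the vectors within numbers 1 and 2, and at 0.885 and 0.888 between the numbers within a vector. CLDN4, a claudin of epithelial tight junctions, had 3269 and 3332 counts in the libraries numbered 1 and 53 and 60 in those numbered 2. The labels do not say what the numbers stand for, so the vector differences of the members and of the locus sum are given within each number too. Of 6 epithelial markers 5 exceeded 1 CPM in all libraries, with a summed level of 3917 to 6720 CPM. Of the 4 blood cell markers 0 did, and of 5 fibroblast and endothelial markers only COL1A1 did. YTHDF1 itself was counted 4889 and 4555 times with the control vector, and 971190 and 158662 times with its own, a log2 fold change of 6.88 ± 1.20 (SE, n = 2 per group). The overexpression was thus present in both YTHDF1 libraries and much lower in replicate 2.

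UTP14C had fewer counts with the YTHDF1 vector in both numbers. Its row held 159 and 359 counts in control replicates 1 and 2, and 48 and 80 counts in YTHDF1 replicates 1 and 2. As CPM (counts scaled to library size), these were 2.67, 6.33, 0.815 and 1.33. Both YTHDF1 libraries lay below both control libraries, and control replicate 2 stood far above control replicate 1. Within number 1 the level was 3.26-fold lower with the YTHDF1 vector and within number 2 it was 4.75-fold lower. On the log2 scale, these differences were −1.70 and −2.25. The group means were 4.50 ± 2.58 CPM (SD, n = 2) and 1.07 ± 0.360 CPM (SD, n = 2). The fit over all genes gave a log2 fold change of −2.07 ± 0.61 (SE), the 25th in size among 17781 tested genes, which is the value the gene was picked on. Leaving out control replicate 2, whose UTP14C count was the highest, brought it to −1.32, and leaving out control replicate 1 or the others kept it between that value and −2.56.

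The gene was chosen for this pattern, so how common the pattern was is given for the record alone. Of the 3 members, 1 (UTP14C) was lower by at least 1 on the log2 scale within both numbers, as were 0.343% of all tested genes. Likewise 1 of 3 had both YTHDF1 libraries below both control libraries, against 5.83% of all tested genes, and 0 of 3 had both above, against 5.67%.

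ALG11 did not share the difference. Its counts were 3550 and 3866 in the control libraries and 3758 and 4409 in the YTHDF1 libraries, or 59.7, 68.2, 63.8 and 73.0 CPM in the same order. The groups overlapped, and in each vector the library numbered 2 was the higher. The group means were 63.9 ± 5.98 CPM and 68.4 ± 6.51 CPM (SD, n = 2 each). Within numbers 1 and 2, ALG11 was higher with the YTHDF1 vector by 0.096 and 0.099 on the log2 scale. The fit gave a log2 fold change of 0.098 ± 0.12 (SE), smaller than its error. That error includes the difference between the numbers, and it was smaller than the fold change when the fit held a term for the replicate number (given below).

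UTP14A, the source of the other UTP14 protein, showed no vector difference beyond its replicate spread. Its counts were 2467 and 2185 with the control vector and 2472 and 2252 with the YTHDF1 vector, or 41.5, 38.5, 42.0 and 37.3 CPM. Here too the groups overlapped, and the libraries numbered 2 were the lower. The within-number differences were 0.017 and −0.047 on the log2 scale, with a log2 fold change of −0.013 ± 0.11 (SE) in the fit. These are the same libraries in which the UTP14C row was several times lower.

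**Figure D2:**
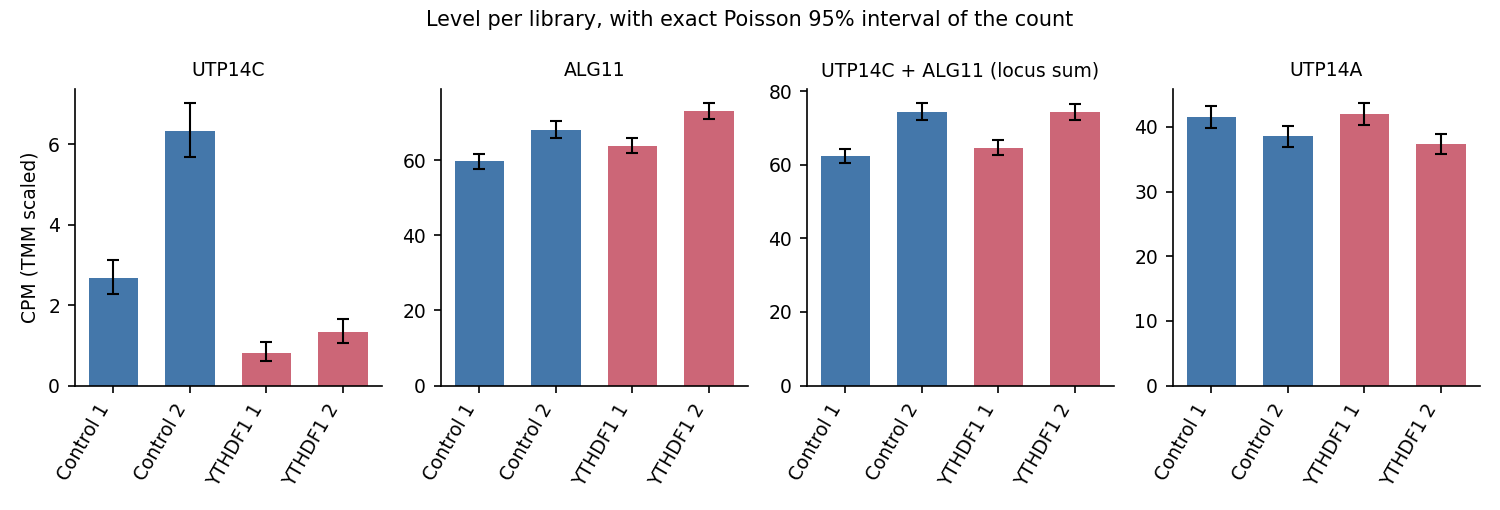
Level in each library in CPM for UTP14C, ALG11, their sum and UTP14A, with control libraries in blue, YTHDF1 libraries in red and the exact Poisson 95% interval of each count as a bar. The YTHDF1 bars of UTP14C (0.815 and 1.33 CPM) lie below the control bars (2.67 and 6.33 CPM), while the other panels split by replicate number.

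Because most UTP14C bases are also ALG11 exon, the rows were added. The sum does not depend on how reads of the shared bases were divided between the 2 genes, unless such reads were dropped. It was 3709 and 4225 counts in the control libraries and 3806 and 4489 in the YTHDF1 libraries. As levels these were 62.4, 74.5, 64.6 and 74.4 CPM, nearly the same for the vectors within a number. The group means were 68.4 ± 8.56 CPM and 69.5 ± 6.87 CPM (SD, n = 2 each), and the log2 fold change was 0.022 ± 0.14 (SE). Within number 1 the sum was higher by 2.25 CPM with the YTHDF1 vector, and within number 2 it differed by −0.142 CPM. UTP14C held only 4.29% and 8.50% of the sum in control replicates 1 and 2. The sum therefore follows ALG11 and would change little even without UTP14C, so it does not show how the reads were divided.

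The opposite differences of the rows can be compared in CPM. Within number 1, UTP14C differed by −1.86 CPM and ALG11 by 4.11 CPM. Within number 2, UTP14C differed by −5.00 CPM and ALG11 by 4.86 CPM. They were thus about equal in size within number 2, and within number 1 that of ALG11 was the larger. A difference like that of ALG11 was common: its log2 fold change of 0.098 was the 6890th in size among 17781 tested genes, whose median size was 0.0688. A lower amount of UTP14C RNA and a different division of the same reads between the rows cannot be told apart from these counts.

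UTP14C held a small and changing share of the locus. It took 4.29% of the summed counts in control replicate 1 (Wilson 95% interval 3.68 to 4.99%) and 8.50% in control replicate 2 (7.69 to 9.38%). In YTHDF1 replicate 1 the share was 1.26% (0.953 to 1.67%) and in replicate 2 it was 1.78% (1.43 to 2.21%). The intervals of the YTHDF1 libraries lay below those of the control libraries, but the control libraries also differed from each other beyond their intervals, which cover counting error only. The group means were 6.39% ± 2.98 and 1.52% ± 0.368 (SD, n = 2 each). For each count on UTP14C there were 22.3 and 10.8 counts on ALG11 in the control libraries, and 78.3 and 55.1 in the YTHDF1 libraries.

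**Figure D3:**
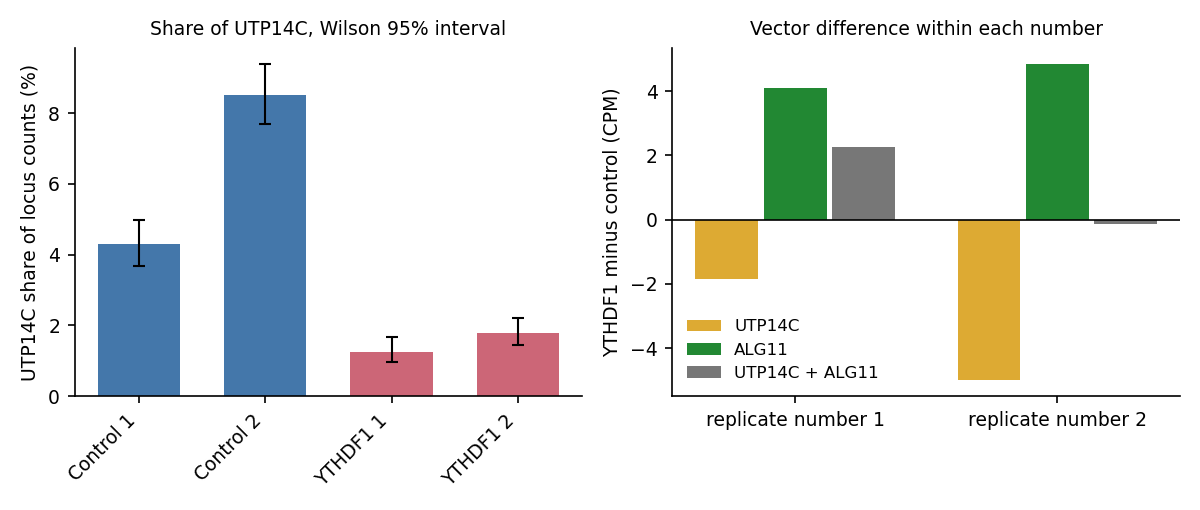
Left, percentage of the UTP14C and ALG11 counts that fell on UTP14C in each library, with Wilson 95% intervals; right, difference between the YTHDF1 and the control library of each replicate number in CPM for UTP14C, ALG11 and their sum. The share is 4.29% against 1.26% within number 1 and 8.50% against 1.78% within number 2, and the sum differs by 2.25 and −0.142 CPM.

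Taken per length of the whole transcript, the UTP14C row was the lower of the UTP14 rows in every library. Reads of the bases it shares with ALG11 may have been counted on ALG11 or dropped. The level of UTP14C RNA may thus be higher than its row shows, which was not tested. Its level was 0.484, 1.14, 0.147 and 0.240 CPM per kilobase of its transcript in control replicates 1 and 2 and YTHDF1 replicates 1 and 2. UTP14A stood at 16.7, 15.5, 16.9 and 14.99 CPM per kilobase of its 15-exon transcript in the same libraries, and ALG11 at 23.3, 26.6, 24.95 and 28.5 CPM per kilobase of its 4-exon transcript. Divided by the longer 3-exon transcript instead, ALG11 stood at 14.1, 16.0, 15.02 and 17.2 CPM per kilobase. UTP14C was the lowest of the 3 in each library, while the order of ALG11 and UTP14A depended on the ALG11 transcript in the libraries numbered 1, where the longer one put ALG11 below UTP14A. By mean CPM over the libraries, ALG11 (66.2) lay above 80.7% of the tested genes, UTP14A (39.8) above 69.1% and UTP14C (2.79) above 31.2%. Of the counts on both UTP14 genes, UTP14C made up 6.05% and 14.1% in the control libraries and 1.90% and 3.43% in the YTHDF1 libraries.

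The replicate numbers allow a test that did not enter the choice of the genes. For the members and the locus sum between the numbers, called means an adjusted p under 0.05, whatever the size. ALG11 was higher in the libraries numbered 2, by a log2 fold change of 0.19 ± 0.054 (SE, n = 2 against 2), with an adjusted p of 0.0159 in edgeR's quasi-likelihood test. The call was lost without control replicate 1 (adjusted p = 0.061) and without YTHDF1 replicate 2 (adjusted p = 0.145), at 0.15 on the log2 scale in both. UTP14A missed the threshold, with a log2 fold change of −0.14 ± 0.052 and an adjusted p of 0.0502, and it passed with DESeq2 size factors (0.0442), with at least 10 counts asked of every library (0.0377) and with edgeR's likelihood ratio test (0.0367). UTP14C was higher in the library numbered 2 for both vectors, 2.37-fold in control and 1.63-fold in YTHDF1, and its log2 fold change of 1.13 ± 0.68 had an adjusted p of 0.195. With the vector as a term in the fit, the same difference was 1.02 ± 0.21 with an adjusted p of 0.00283, so the call of UTP14C depends on that choice. It also rests on single libraries, since the log2 fold change was −0.39 without control replicate 2, 2.22 (adjusted p = 0.0412) without control replicate 1 and 1.86 (adjusted p = 0.0406) without YTHDF1 replicate 2. The summed locus rose by 0.23 ± 0.044 on the log2 scale (adjusted p = 0.0024), and stayed called with each library left out. At an adjusted p under 0.05 alone, 1 of the 3 members passed, against 52.6% of all tested genes, and 0 of 3 passed when a size of 0.5 on the log2 scale was required too, against 26.2%.

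The neighbours on the chromosomes were compared in the same way. ATP7B, a copper transporter whose start lies 265 bases from that of ALG11, had a vector log2 fold change of −0.06, and NEK5, a kinase gene that ends 10 bases beyond the locus, had −0.25. The standard errors, which include the difference between the numbers, were 0.29 and 0.77, larger than the vector differences. Within numbers 1 and 2, ATP7B differed by −0.08 and −0.05 on the log2 scale, and NEK5 by −0.15 and −0.50. Between the numbers ATP7B was higher by 0.48 (adjusted p = 0.000714) and NEK5 lower by 1.37 on the log2 scale (adjusted p = 0.0012) in the libraries numbered 2. NEK5 had counts about as low as UTP14C, at 155, 64, 138 and 48 in the order above, with both libraries numbered 1 above both numbered 2. Beside UTP14A, the palmitoyltransferase gene ZDHHC9 and the corepressor gene BCORL1 had vector log2 fold changes of −0.08 ± 0.14 and 0.09 ± 0.082 (SE).

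UTP14 proteins act in the processome, so the rest of that particle was examined. Of 51 other processome genes, all tested, 24 were higher and 27 lower with the YTHDF1 vector, and their log2 fold changes stayed between −0.08 and 0.08. The median was −0.0023, against 0.0046 over all tested genes. At the thresholds used in the study (0.5 or more in size on the log2 scale, p under 0.05, taken as unadjusted) 0 of 51 were called, against 0.101% of all tested genes, and with adjusted p 0 were, against 0%. Adjusted p separates nothing in this comparison, since YTHDF1 itself had an unadjusted p of 0.00613 and an adjusted p of 1.00 in edgeR's quasi-likelihood test. At an unadjusted p under 0.05 of any size, 0 of 51 passed, against 0.135% of all tested genes. The fit has no term for the replicate number, so the difference between the numbers widens its errors and few genes of any kind passed. DHX37, the helicase that UTP14 activates, had a log2 fold change of −0.02 ± 0.091 (SE). NOP56, a core protein of box C/D small nucleolar particles and the most abundant of the list at a mean of 219 CPM, had −0.02, and NOC4L, a processome factor with the lowest level at 21.6 CPM, had 0.02. All 5 proteins of the U3 particle had log2 fold changes below 0, between −0.05 and −0.01, and none was called. Within numbers 1 and 2, FBL (−0.090 and −0.015) and NOP56 (−0.013 and −0.026) were lower in both. NOP58 (0.0023 and −0.062), SNU13 (−0.030 and 0.019) and RRP9 (−0.12 and 0.12) changed sign. UTP14C, chosen for its value of −2.07, is not part of these counts.

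The replicate numbers differed more across the whole table, with a median size of the log2 fold change of 0.308 over all tested genes against 0.0688 between the vectors. Of the 51 processome genes 12 were higher and 39 lower in the libraries numbered 2, with a median log2 fold change of −0.14 against −0.01 over all tested genes. At 0.5 or more in size and an adjusted p under 0.05 in edgeR's quasi-likelihood test, 0 of 51 were called, against 26.2% of all tested genes. At an adjusted p under 0.05 of any size, 6 of the 51 rose and 26 fell, while 52.6% of all tested genes passed in either direction. DHX37 differed by −0.09 (adjusted p = 0.117).

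ALG11 acts in the pathway that builds and transfers the N-glycan precursor. Of 37 other genes of it 36 were tested, since TUSC3, a subunit of the oligosaccharyltransferase, had 0 counts in all libraries, which allows up to 3 counts each. With the YTHDF1 vector 25 were higher and 11 lower, between −0.09 and 0.15 on the log2 scale, with a median of 0.03. At the thresholds given above 0 of 36 were called, with or without adjustment, and 0 had an unadjusted p under 0.05. As said for the processome, few genes of any kind passed in this fit. ALG1 and ALG2, the mannosyltransferases that act just before ALG11 on the same membrane face, had log2 fold changes of 0.06 ± 0.11 and −0.0092 ± 0.10 (SE). Of the 11 oligosaccharyltransferase genes tested, which include the subunits that hand the finished glycan to proteins, 9 were higher, and DDOST, the most abundant at 330 CPM, had 0.02. ALG14, which anchors an early transferase and had the lowest level of the tested genes at 6.39 CPM, had −0.02. The value of ALG11 itself (0.098) lay within the range of its pathway.

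Between the numbers, 4 of the 36 N-glycan genes (11.1%) had a size of 0.5 or more and an adjusted p under 0.05, against 26.2% of all tested genes, and they are named after their values were seen. SRD5A3, a polyprenol reductase that makes dolichol, rose by 0.56 on the log2 scale in the libraries numbered 2. ALG9, a lumenal mannosyltransferase, rose by 0.57, and DPAGT1, which starts the precursor, rose by 0.51. OSTC, an oligosaccharyltransferase subunit, fell by 0.53. Their adjusted p in edgeR's quasi-likelihood test were 0.000295, 0.000116, 5.5e-05 and 0.000133. ALG1 and ALG2 differed by 0.11 and −0.07 (adjusted p of 0.145 and 0.400).

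**Figure D4:**
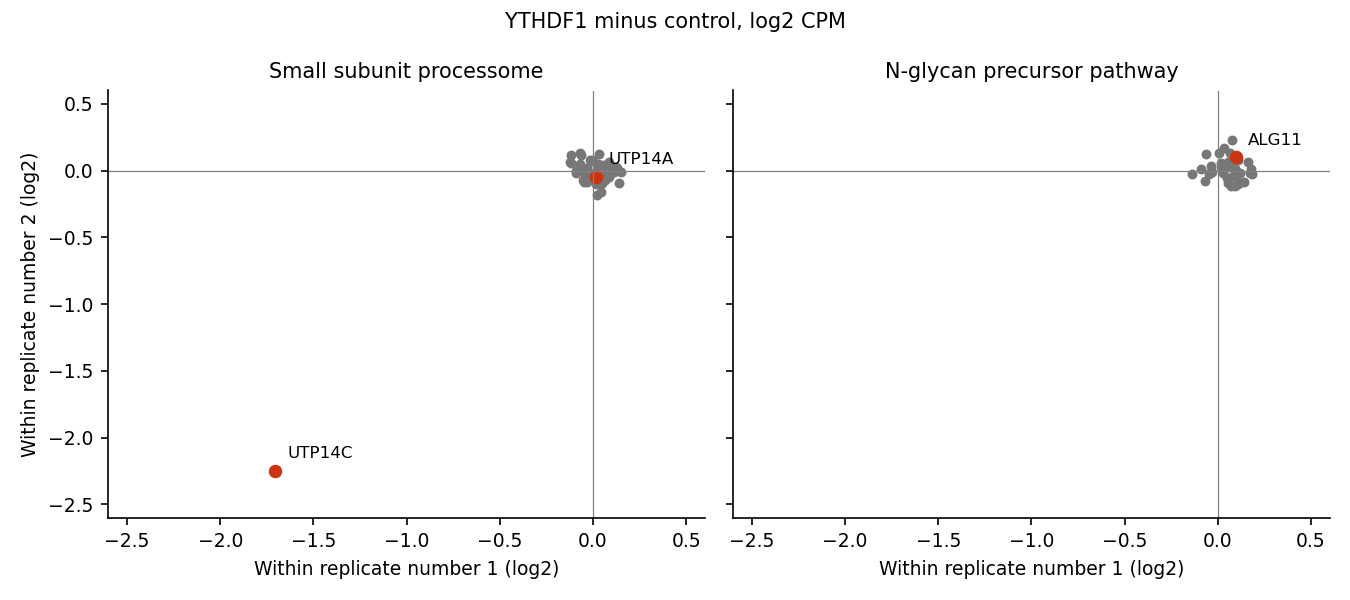
Each point is a gene of the processome (left) or the N-glycan pathway (right), placed by its log2 difference between the YTHDF1 and control vectors within replicate number 1 (x axis) and number 2 (y axis), with members in red. UTP14C, the gene chosen for its difference, is plotted at −1.70 and −2.25, and ALG11 and UTP14A lie within the clouds near 0.

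UTP14C was also set beside other autosomal copies of X-linked genes, which arose in the same way. Of 13 such copies, UTP14C included, 5 had at least 10 counts in every library, and UTP14C is 1 of these. A further 4 had between 1 and 10 counts at most, and 4 had 0 in all libraries. CSTF2T, a copy of the polyadenylation factor CSTF2, took 53.2, 52.4, 52.2 and 51.6% of the counts on copy and parent in the order above. RBMXL1 took 15.1 to 18.0% beside RBMX, RPL36AL 25.5 to 26.5% beside RPL36A, and TRAPPC2B 24.7 to 30.3% beside TRAPPC2. The share of UTP14C, which was chosen for its difference, ran from 1.90 to 14.1%. The vector log2 fold changes of the other 4 copies ran from −0.07 to 0.03.

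The genes whose profile over the 4 libraries was most like that of UTP14C were sought by the distance between mean-centred log2 CPM, among 17780 other tested genes. The nearest was MIR600HG, a long noncoding RNA gene with 40, 134, 15 and 35 counts, at a distance of 0.588. LOC112267909, LOC399900 and LINC01447, also noncoding, had 2 to 27 counts per library. PHOSPHO2-KLHL23, a read-through gene whose exons are also those of its component genes, had 141, 183, 44 and 39 counts. All 5 had fewer counts than UTP14C on average, and a likeness over 4 libraries is only a description. Profiles close to ALG11 were found for H2AX, GNAI3 and SUSD1 (distances of 0.0053 to 0.017), and close to UTP14A for ARL3, KPNA1 and MIR1304 (0.0067 to 0.013).

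Since YTHDF1 binds m6A, the sequence GGACT, a common form of the methylated motif, was counted on the sense strand of the coding sequences. The untranslated regions, which make up more of the UTP14C transcript than its coding sequence, were not searched. It occurred 1 time each in ALG11 (4-exon transcript), UTP14C and UTP14A. Of 71940 coding transcripts of GENCODE 29, 65.8% held it, and of the 5597 with 2000 to 2600 coding bases 89.9% did, with a median of 2. Methylation was not measured in these libraries.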

How the data were processed

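RNA of SNU638 cells (Control and YTHDF1, n = 2 each) was sequenced from stranded poly(A) libraries. The submitters' processing notes name Trimmomatic, HISAT2 and GRCh38. The authors deposited counts, whole numbers of reads per gene without normalization; counting tool, strand setting and annotation release are not given in the sources used here. Members, gene lists and the rule for named genes were chosen with earlier results of these data known. By that rule the members, YTHDF1, DHX37, ALG1, ALG2, chromosomal neighbours, the highest and lowest gene of each list, retrocopies with at least 10 counts in every library and the nearest profiles are named.

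The analysis used edgeR 4.0.16 in R 4.3.3: filterByExpr (17781 genes), TMM scaling and the quasi-likelihood test, with Benjamini-Hochberg adjustment over all tested genes. CPM were scaled by TMM, and differences within a number are of log2 CPM with a prior count of 0.5. Standard errors were derived as the fold change (log2) divided by the square root of F. Genes were called at 0.5 or more in size on the log2 scale and p under 0.05. Between the numbers, the members and the locus sum were called at an adjusted p under 0.05 of any size. The locus sum was fitted in place of its 2 rows. Positions and promoter windows were taken from RefSeq (GRCh38.p14), in which all 3 members matched, and exon models and transcripts from GENCODE 29. Sequences were aligned with Biopython 1.88. The fits were tested on simulated data. In the data simulated for the vector fit the replicate numbers did not differ, unlike here, so that test does not cover such a difference. Alternatives were DESeq2 1.42.0 size factors and its Wald test, the likelihood ratio test, limma-voom (limma 3.58.1), other count filters, library sizes without YTHDF1, a term for the replicate number or the vector, and leaving out each library. Binomial and Poisson intervals reflect counting error alone, because PCR copies were not told apart by molecular identifiers.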

Additional observations from a re-analysis of the deposited data

How the results depend on the processing

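With 2 libraries per group, the vector difference of UTP14C kept its direction in all alternatives. It ran from −2.07 to −1.97 over 8 settings with all libraries and from −2.56 to −1.32 with a library left out, the smallest without control replicate 2. ALG11 ran from −0.0095 to 0.20, UTP14A from −0.10 to 0.06 and the locus sum from −0.10 to 0.15 with a library left out, so the signs of these 3 were not fixed. The share of UTP14C had single-library values of 4.29 to 8.50% in control and 1.26 to 1.78% in YTHDF1.

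The labels do not say what the replicate numbers pair, and with 2 pairs no pairing was assumed, although the deviations of same-numbered libraries correlated at 0.942 over genes. With the replicate block, UTP14C differed by −2.01 ± 0.22, ALG11 by 0.098 ± 0.048, UTP14A by −0.015 ± 0.058 and the locus sum by 0.024 ± 0.049 (SE). The block moved the genes called between the vectors over the whole table from 18 to 192, the lack of a count filter moved it to 82, and leaving out a library gave 47 to 60; the cause was not tested. The processome and N-glycan lists held 0 called genes in each of these fits.

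Between the numbers, the difference of UTP14C was 1.02 with the vector as a term (adjusted p = 0.00283) and −0.39 to 2.22 with a library left out, reversing without control replicate 2. UTP14A passed the threshold at −0.14 with DESeq2 size factors, −0.15 with at least 10 counts in every library and −0.14 with the likelihood ratio test. With a library left out it ran from −0.16 to −0.11. ALG11 ran from 0.15 to 0.25 and was not called without control replicate 1 or YTHDF1 replicate 2. The locus sum was refitted after its value had been seen, and stayed called throughout. Called processome genes ran from 0 to 1 and called N-glycan genes from 2 to 4 with a library left out. Lone libraries were assumed to vary like the others.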

Other observations

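UTP14C and ALG11 are 1 of many pairs of protein-coding genes on the same strand whose exons overlap. This comparison was chosen after the values of UTP14C were seen. In 97 other pairs, with 92 different minor genes (the row with fewer counts), at least 50% of the minor gene's exonic bases in the GENCODE 29 models were also exon of the other gene. Over the mean of the within-number log2 differences between the vectors, the median size was 0.368 for the 92 minor genes, 0.0656 for the major genes and 0.0502 for the sums of the pairs, against 0.0701 over all tested genes. Level differs among these groups: for the 762 tested genes with 500 to 800 counts over the 4 libraries, like the 646 of UTP14C, the median size was 0.133. Where the minor gene holds few of the counts, the sum follows the major row whatever the minor gene does.

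Of the 92 minor genes, 40 (43.5%) differed by at least 0.5 in size, against 9.20% of all tested genes and 8.40% of those with 500 to 800 counts. That band was set around UTP14C and does not match the minor genes, which had from 42 (FSBP) to 25224 counts (NME1-NME2). At low counts, counting error alone gives large differences, so the shares are not compared at equal level. In 4 of the 97 pairs the sum did, of UGT1A and PCDHG genes, clusters whose members share their last exons. The direction within the numbers was opposite for 45 (48.9%) of the minor genes. By at least 1 within both numbers, 1 (1.09%) was higher, against 0.186% of all tested genes, and 4 (4.35%) were lower, against 0.343%. The higher one was the read-through TSNAX-DISC1, at 1.35 and 2.79. The lower ones were FAM47E-STBD1, BLOC1S5-TXNDC5 and TPTEP2-CSNK1E, which are read-through genes, and PLA2G4B, a phospholipase gene beside the read-through JMJD7-PLA2G4B. Their within-number log2 differences were −5.66 and −8.89, −4.63 and −4.95, −3.36 and −1.31, and −2.16 and −4.01. The corresponding sums of each pair differed by 0.11 and −0.22, 0.07 and 0.03, 0.07 and −0.10, and 0.15 and 0.07. Over the 4 libraries together, the major rows held 3235, 55652, 22374 and 1239 counts and the minor rows 247, 2592, 498 and 442. The major rows differed by 0.15 and 0.23, 0.30 and 0.03, 0.16 and −0.09, and 1.60 and 0.46. The sum of the PLA2G4B pair thus did not simply follow its major row. Whether the read division between the rows of these pairs varied between libraries was not tested.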
